A study of Mus musculus with 15 samples.

Results

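The early response to loss of Smarcb1 was measured by RNA-seq in mouse embryonic stem cells (mESC), 48 h after the knockdown was induced. The members are the 6 libraries that their titles name as 48 h kd (replicates 1 to 3) and 48 h ctrl (replicates 1 to 3), out of 15 in the series. All libraries came from the line 81K1, which is based on OG2 mESC and in which a doxycycline-dependent promoter drives an shRNA to Smarcb1 from a cassette exchanged into the Rosa26 locus. The 48 h kd cells received 1 µg doxycycline per ml medium every day, and the 48 h ctrl cells carried the same cassette and were untreated. Cells grew on gelatine in serum-containing medium with LIF. For later times, 3 kd libraries at 72 h, 3 kd libraries at 240 h and 3 untreated libraries at 240 h, all from the same line, are given side by side with the 48 h values. The line is 1 clone. Cells that lack the shRNA but received doxycycline were not analysed here, so an effect of doxycycline and an effect of the knockdown cannot be told apart.

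Smarcb1 is a core subunit of the canonical BAF and the PBAF complexes, which use ATP to move nucleosomes and so set the access of other proteins to enhancers and promoters. The non-canonical BAF complex lacks it. In mESC the BAF complexes act beside the pluripotency factors Pou5f1, Sox2 and Nanog. BAF can remove Polycomb complexes from chromatin, and some developmental genes of mESC are held silent by the pair. Smarcb1 is a tumour suppressor that is lost in rhabdoid tumours.

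The 6 libraries held between 11074998 and 13716912 reads. Values are RPM, that is, the reads over the whole span of a gene per 1000000 reads of the library total, so they can be compared between libraries but not between genes. Sampling noise was exceeded in all 6 pairs of replicates. For the pairs with 48 h kd replicate 2 the chi-square per degree of freedom was 11.4 and 9.18, against 1.51 to 4.49 in the other 4, and this library held 2.35% mitochondrial reads, against 0.859% to 1.43% in the other 5. Where a call or the size of a change rested on it, the value without it is also given. In a principal component analysis of 12386 genes with at least 50 reads, the first component (70.9% of the variance) set the kd libraries, at -22 to -15.1, apart from the ctrl libraries, at 15.9 to 19.4. The labels do not say whether replicates were separate cultures, so p-values measure the spread between these libraries, which may be technical. The labelled cell type was checked first. All 10 mESC markers were tested, among them Pou5f1, Sox2 and Nanog, and 0 were called by limma (9 at an unadjusted p under 0.05, 0 by voom). Their summed level was 6065 to 6383 RPM in ctrl and 5815 to 6549 RPM in kd. The summed level of 8 fibroblast or feeder markers was 7.58 to 8.38 RPM in ctrl and 6.99 to 9.29 RPM in kd, with no read of Postn and Lum in any of the 6 libraries.

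Smarcb1 itself, the target of the shRNA, lies on chromosome 10, 75896769 to 75921617 (mm10, ENSMUSG00000000902.13, minus strand) and shares its span with no listed gene. The libraries held 84.7, 86 and 97.8 RPM in ctrl and 12.5, 20.4 and 15.3 RPM in kd, from 953 to 1162 reads per library in ctrl and 144 to 239 in kd. Every kd library lay below every ctrl library, and kd replicate 2 kept the most. The kd mean was 18% of the ctrl mean (89.5 ± 7.21 RPM in ctrl and 16.1 ± 3.99 RPM in kd), with a log2 fold change of -2.48, SE 0.13, adjusted p = 9.12e-08.

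Tgm2 encodes transglutaminase 2, an enzyme that cross-links proteins and binds GTP. It was the gene with the largest rise among those named here, from 26, 27 and 31 RPM in ctrl to 197, 163 and 201 RPM in kd. The groups did not overlap, and kd replicate 2 was the lowest of the 3 kd libraries. On average the level was 6.62-fold higher (28 ± 2.67 RPM in ctrl and 187 ± 21.1 RPM in kd, log2 fold change of 2.73, SE 0.09, adjusted p = 1.54e-09). The gene (chromosome 2, 158116402 to 158146436) overlaps Rprd1b and Gm20412, which were called the same way (log2 fold change 1.33 and 2.74), and since the values fit counting over whole spans without regard to strand, which the sources do not state, shared reads cannot be assigned to one of them.

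Emp1 encodes epithelial membrane protein 1, a multi-pass membrane protein of the Pmp22 family. It showed the largest fall, with 46.6, 53.9 and 53.3 RPM in ctrl and 7.38, 6.05 and 5.15 RPM in kd, from 598 to 639 reads per library in ctrl and 57 to 85 in kd. The highest kd library held less than the lowest ctrl library by a wide margin, and the level was 8.06-fold lower (51.3 ± 4.06 RPM in ctrl and 6.19 ± 1.12 RPM in kd, log2 fold change of -3.01, SE 0.12, adjusted p = 1.46e-08). Its relatives Emp2 and Emp3 were not called (-0.54 and 0.07, adjusted p = 0.0427 and 0.877). Without kd replicate 2, however, 2 of the 3 tested members of the family were called lower, against 1 with it. Ucp2 encodes a carrier of the inner mitochondrial membrane. The level of Ucp2 was 113, 124 and 127 RPM in ctrl and 37.2, 33.3 and 39.9 RPM in kd, again without overlap of the groups, and it was 3.28-fold lower in kd (121 ± 7.54 RPM in ctrl and 36.8 ± 3.3 RPM in kd, log2 fold change of -1.72, SE 0.07, adjusted p = 2.12e-08). The other 3 tested mitochondrial uncoupling carriers of 6 listed were not called.

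**Figure D1:**
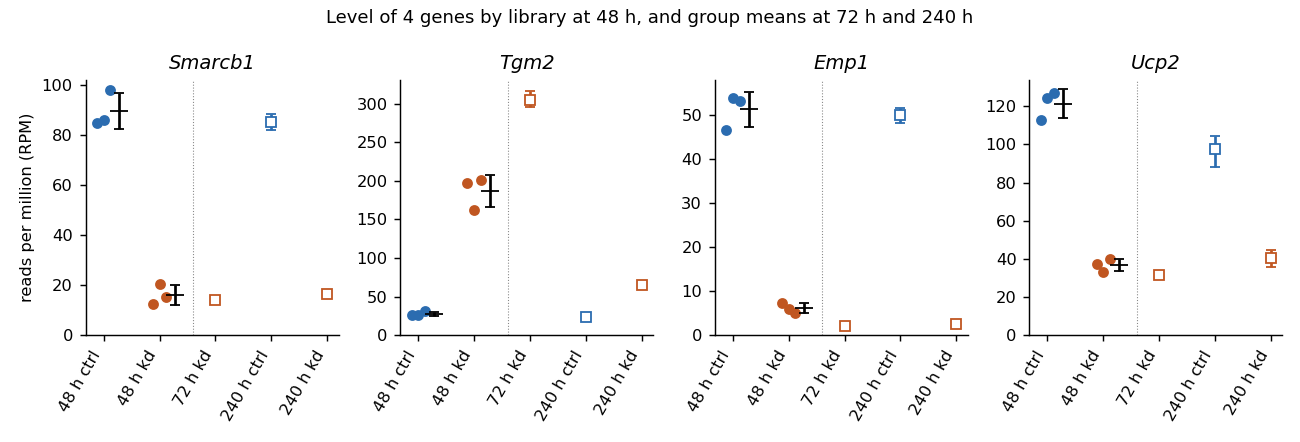
Level in RPM (vertical axes, starting at 0) of Smarcb1, Tgm2, Emp1 and Ucp2 by group. Filled circles are single 48 h libraries with mean and SD beside them (n = 3), and open squares are group means at 72 h and 240 h with bars from the lowest to the highest library. The 3 kd libraries at 48 h lie at 12.5 to 20.4 RPM for Smarcb1, all below the ctrl libraries at 84.7 to 97.8.

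Which transcripts differ early after induction was asked across all genes. Of 55228 listed genes, 16108 had a mean of at least 10 reads in the 6 libraries and were tested with limma. A call required a Benjamini-Hochberg adjusted p under 0.05 together with a log2 fold change beyond 0.58 in either direction. In total 1454 genes were called (9.03% of those tested), of which 676 were higher (4.2%) and 778 lower (4.83%) in kd. The 3 libraries of one group lay apart from the 3 of the other in 1439 of the 1454, against 41.6% of all genes tested. A call from 3 and 3 libraries itself favours such separation, so this adds no support to the calls. The changes were mostly small, with a median of 1.76-fold for the genes called higher and 1.86-fold for those called lower. A change of more than 2-fold was found for 180 higher and 292 lower genes, and of more than 4-fold for 10 and 21. Without kd replicate 2, 1424 genes were called (578 higher, 846 lower), among them 527 of the 676 and 728 of the 778. The reads behind the calls were often few. Of 3722 genes with a mean of 10 to 50 reads 16.1% were called, against 6.90% of those with 50 or more.

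**Figure D2:**
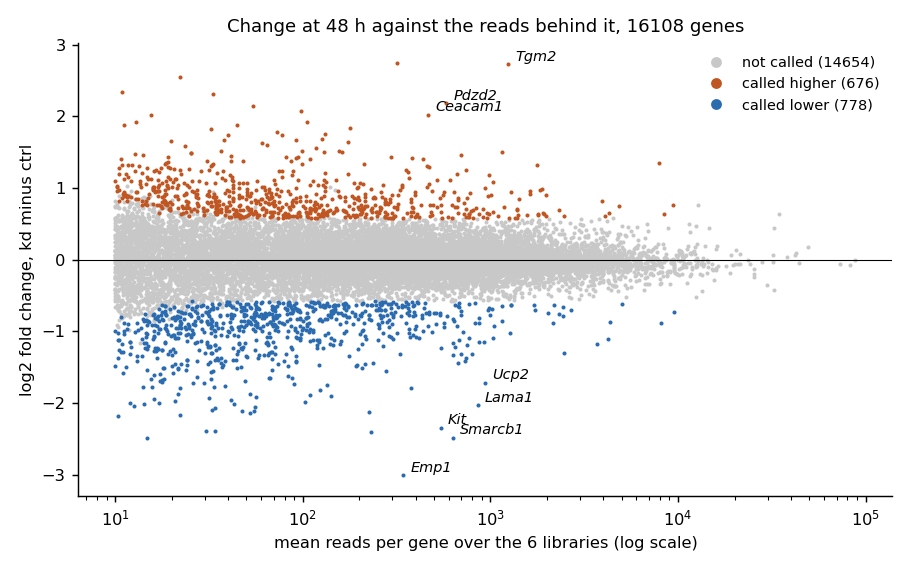
Log2 fold change (kd minus ctrl at 48 h) of each of the 16108 genes tested against its mean reads over the 6 libraries (log axis), with called genes in colour. Calls lie at all read depths, and Emp1 (-3.01), Smarcb1 (-2.48) and Tgm2 (2.73) stand at the edges among genes with over 100 mean reads.

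Genes called higher and lower included many that span long stretches of the genome, which the unit of the deposited values hides because FPKM divides by the whole span. Genes of at least 100 kb made up 12.6% of those tested (2027) and 21.3% of those called (123 higher, 187 lower). The share called lower was 3.73% of 4823 genes under 10 kb, 4.44% of 9258 genes of 10 to 100 kb, 9.20% of 1261 genes of 100 to 200 kb and 9.27% of 766 genes of 200 kb and more. The shares called higher in the same order were 4.15%, 3.81%, 5.00% and 7.83%. Of the called genes, 396 higher and 529 lower had a mean level under 0.5 FPKM, beside 5502 of all 16108 genes tested. By gene type, 516 of the genes called higher and 684 of those called lower were protein-coding, while 41 and 19 were lincRNA. Overlap with another listed gene was found for 373 and 445, and 117 and 152 overlapped a gene called the same way. Genes overlapping one called the same way include Ceacam1, Sema3e, Gli1, Gbx2, Fgf15, Fgfr1, Pim1, Cish, Id4, Cd34, Sox21, Itga9, Col4a1 and Eomes. Such an overlap is marked below for some genes only. The shares of these gene types and overlaps among all genes tested were not counted, so these counts describe the called genes only.

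The naming rule left out genes averaging under 50 reads, some of which fell more than Ablim1, though none more than Emp1, and under it Ablim1, Kit and Lama1 were among the 12 largest falls, beside Emp1 and Smarcb1. Ablim1, a LIM protein that binds actin, went from 33, 32.1 and 32.3 RPM in ctrl to 5.47, 6.57 and 5.87 RPM in kd, a log2 fold change of -2.40 (SE 0.10, adjusted p = 1.77e-08). The kd libraries lay far below the narrow range of the ctrl libraries. Kit encodes the receptor of stem cell factor. Its level was 77.6, 74.8 and 75.2 RPM in ctrl and 15.3, 15.7 and 13.4 RPM in kd, 5.07-fold lower (SE of the log2 fold change 0.08, adjusted p = 1.54e-09). Lama1, the alpha 1 chain of laminin 111 in the embryonic basement membrane, stood at 116, 117 and 112 RPM in ctrl and 27.8, 27.4 and 28.8 RPM in kd, from 1271 to 1589 reads per library in ctrl and 319 to 321 in kd. It was 4.08-fold lower (log2 fold change of -2.03, SE 0.06, adjusted p = 6.99e-10) and had the smallest adjusted p of the genes named here.

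Lef1, a nuclear effector of Wnt signalling, had 16, 13.3 and 12.1 RPM in ctrl and 2.52, 3.15 and 4.33 RPM in kd (-1.99, adjusted p = 8.23e-06). It shares its span with Lef1os1, which was called the same way (-1.52). Coro2b, a coronin that binds actin, fell 4.36-fold from 30.9 ± 0.602 RPM in ctrl to 6.9 ± 0.602 RPM in kd. Tgm3, a transglutaminase of epidermis and hair, fell 4.39-fold from 7.37 ± 1.61 RPM in ctrl to 1.49 ± 0.428 RPM in kd, so the 2 called members of the family moved in opposite directions. Tgm1, which makes the cornified envelope, had a log2 fold change of -0.36 and was not called. Trpa1, an ion channel for irritants, had 6.85, 7.85 and 8.13 RPM in ctrl and 2.17, 1.02 and 1.72 RPM in kd, and Hal, the first enzyme of histidine breakdown, had 7.22, 8.12 and 7.68 RPM in ctrl and 1.56, 1.71 and 1.72 RPM in kd. In both genes the groups lay apart, with 12 to 25 reads per kd library in Trpa1 and 18 to 20 in Hal. Lpar1, a receptor of lysophosphatidic acid, fell 3.77-fold (7.66 ± 1.28 RPM in ctrl and 1.83 ± 0.123 RPM in kd), and Lad1, a protein of basement membrane anchors, fell 3.75-fold (18.7 ± 1.56 RPM in ctrl and 4.89 ± 1.18 RPM in kd).

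The largest rises under the same rule, besides Tgm2, held genes of several families. Pdzd2, a protein with several PDZ domains, had 20.3, 18.3 and 15.3 RPM in ctrl and 78.7, 88.8 and 78.6 RPM in kd, from 173 to 278 reads per library in ctrl and 870 to 1041 in kd. The level was 4.54-fold higher (log2 fold change of 2.18, SE 0.10, adjusted p = 2.3e-08). Ceacam1, a cell adhesion molecule of the immunoglobulin superfamily, had 16.8, 16.1 and 14 RPM in ctrl and 58.5, 72.8 and 62 RPM in kd, a 4.07-fold rise (SE of the log2 fold change 0.10, adjusted p = 3.6e-08). In both genes every kd library lay far above every ctrl library. Ceacam1 overlaps 4732471J01Rik, which was called the same way (1.25). Transcription factors were among the largest rises. Rfx4, a factor of cilia and the developing brain, rose 3.79-fold (3.65 ± 0.25 RPM in ctrl and 14.5 ± 1.11 RPM in kd). Nkx6-3, a homeodomain factor known from stomach and hindbrain, went from 6.12, 7.04 and 6.62 RPM in ctrl to 26, 21 and 25.8 RPM in kd (3.57-fold, adjusted p = 2.88e-07).

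Arhgef38, a guanine nucleotide exchange factor of small GTPases, rose 4.4-fold (1.59 ± 0.291 RPM in ctrl and 7.79 ± 0.681 RPM in kd), and Tafa4, a secreted protein, rose 4.21-fold (3.1 ± 0.524 RPM in ctrl and 13.8 ± 1.9 RPM in kd). Scn3b, an auxiliary subunit of voltage-gated sodium channels, rose 3.43-fold (2.71 ± 0.328 RPM in ctrl and 9.92 ± 1.38 RPM in kd). Serping1, the inhibitor of complement C1, rose 3.11-fold (7.19 ± 0.756 RPM in ctrl and 22.9 ± 1.06 RPM in kd), and Adamtsl4, a matrix protein that binds fibrillin, rose 3.33-fold (2.92 ± 0.133 RPM in ctrl and 10.4 ± 1.5 RPM in kd). Ank1, the ankyrin of the red cell membrane, rose 3.1-fold (2.39 ± 0.277 RPM in ctrl and 7.98 ± 1.48 RPM in kd) and overlaps Gm15816, which was called the same way. In all 23 genes of the plot of largest changes the groups did not overlap, which the rule for naming them required.

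**Figure D3:**
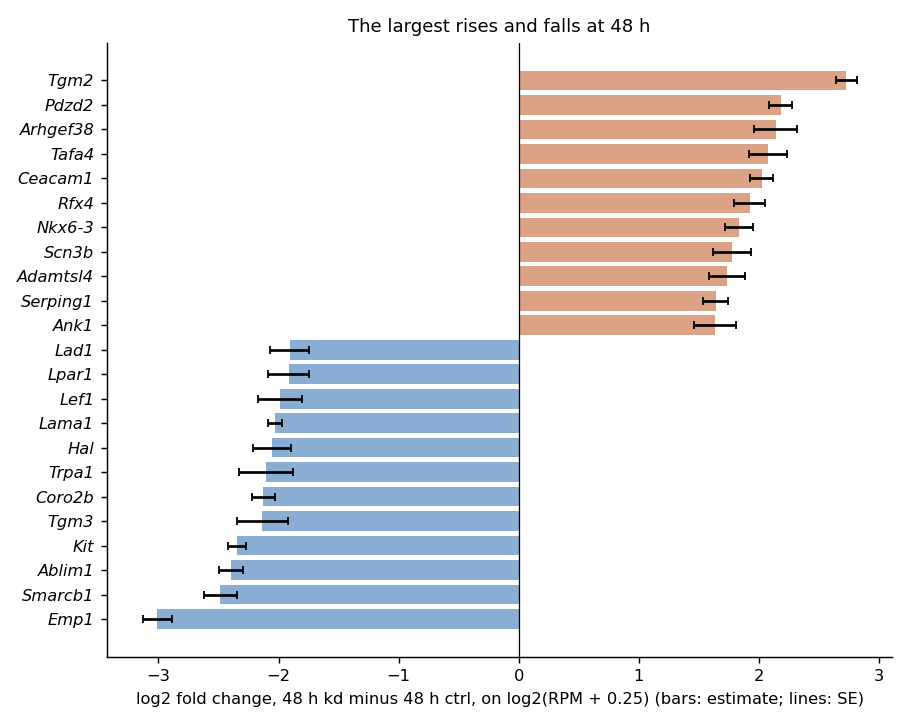
Log2 fold change at 48 h, kd minus ctrl on log2(RPM + 0.25), of 11 large rises and the 12 largest falls under the naming rule, with SE as lines. Values run from -3.01 (Emp1) to 2.73 (Tgm2).

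The letters before the transcription starts are shown for 4 of these genes that have an entry in the RefSeq promoter table (GRCm38.p6), to let a reader see how different the starts of strongly moving genes are. Each run holds up to 250 bases before the annotated start, without the bases next to it that lie in an annotated exon, and has every CpG dinucleotide in capitals. Emp1 is the largest fall and is shown for the second of its 2 starts, chr6:135367243-135367492 (plus strand), since the bases before the other start lie in an exon. Ucp2 is shown as chr7:100493108-100493336 (plus strand), Ceacam1 as chr7:25477626-25477875 (minus strand) and Pdzd2 as chr15:12739925-12740142 (minus strand).
Emp1: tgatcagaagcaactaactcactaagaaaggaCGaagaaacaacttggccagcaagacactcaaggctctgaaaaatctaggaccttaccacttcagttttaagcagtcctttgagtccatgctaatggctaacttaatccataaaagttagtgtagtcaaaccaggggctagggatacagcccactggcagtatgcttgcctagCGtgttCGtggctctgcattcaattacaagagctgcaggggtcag
Ucp2: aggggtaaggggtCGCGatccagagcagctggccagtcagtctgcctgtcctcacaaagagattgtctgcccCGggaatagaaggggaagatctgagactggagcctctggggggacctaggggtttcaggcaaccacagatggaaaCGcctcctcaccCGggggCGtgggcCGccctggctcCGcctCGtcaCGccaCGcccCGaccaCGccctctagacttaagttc
Ceacam1: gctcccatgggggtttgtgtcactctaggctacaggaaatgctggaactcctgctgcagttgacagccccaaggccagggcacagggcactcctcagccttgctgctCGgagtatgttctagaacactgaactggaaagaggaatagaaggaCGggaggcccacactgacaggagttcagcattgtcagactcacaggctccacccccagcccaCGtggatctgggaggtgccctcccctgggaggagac
Pdzd2: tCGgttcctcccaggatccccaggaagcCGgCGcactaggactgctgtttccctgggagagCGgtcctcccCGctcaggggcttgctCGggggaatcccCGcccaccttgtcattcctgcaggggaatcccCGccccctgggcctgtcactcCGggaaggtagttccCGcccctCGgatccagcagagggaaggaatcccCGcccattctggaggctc

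These runs hold 3 CpG in 250 bases for Emp1, 13 in 229 for Ucp2, 3 in 250 for Ceacam1 and 12 in 218 for Pdzd2. With the bases that were left out, the full 250 bases held 3, 16, 3 and 16 in the same order. Over the 32851 starts of the table, the 250 bases before the start held a median of 6 CpG (quartiles 2 and 16), and 92.1% held at least 1. A gene that rose and a gene that fell are thus found at both the CpG-poor and the CpG-rich end of this set. The place of Emp1 rests on its second start alone. Kit, a fall whose bases are not printed, held 17 and 18 CpG in the 250 bases before its 2 starts. The table holds 65.5% of the called genes, so a comparison of CpG content over the called genes would be void and was not made.

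The subunits of the complex itself were counted against 9.03% called among all genes. Of 28 listed subunits of canonical BAF and PBAF 26 were tested, and 2 (7.69%) were lower and 0 higher (9 lower and 4 higher at an unadjusted p under 0.05, 2 and 0 by voom), with a median log2 fold change of 0.03 beside 0.01 over all genes. One was Smarcb1, the target of the shRNA, and the other was Bcl11b, a zinc finger factor that can join BAF (6.76 ± 1.1 RPM in ctrl and 4.4 ± 0.785 RPM in kd, -0.60, adjusted p = 0.0232). The call of Bcl11b was lost without ctrl replicate 1 (-0.59, adjusted p = 0.0641), ctrl replicate 2 (-0.49, 0.12), kd replicate 1 (-0.46, 0.0704) and kd replicate 3 (-0.62, 0.0519). Smarca4, the ATPase of the complexes, had 439 ± 6.82 RPM in ctrl and 458 ± 9.84 RPM in kd (0.06, adjusted p = 0.359), and Arid1a and Smarcc1 had log2 fold changes of 0.16 and -0.15. None of 3 subunits of non-canonical BAF was called by limma or voom (1 at an unadjusted p under 0.05), nor any of 18 ATPases of chromatin remodellers (9 at an unadjusted p under 0.05).

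Polycomb complexes were counted likewise. Of 12 PRC2 subunits 1 was lower, namely Phf19, an accessory subunit that reads methylated histone H3 (14.1, 13.7 and 13.6 RPM in ctrl and 5.99, 6.14 and 6.5 RPM in kd, -1.12, adjusted p = 1.29e-05). Ezh2, the methyltransferase of PRC2, had 239 ± 8.38 RPM in ctrl and 209 ± 4.26 RPM in kd (-0.19, adjusted p = 0.0122), under the minimum change for a call. Among 19 tested PRC1 subunits of 20 listed, Bmi1, a ring finger subunit, rose 1.83-fold (5.74 ± 0.603 RPM in ctrl and 10.7 ± 0.664 RPM in kd, adjusted p = 0.000299). Tet3, which oxidises methylcytosine, rose 1.58-fold (16.1 ± 1.93 RPM in ctrl and 25.6 ± 2.18 RPM in kd), the only one called of 10 enzymes of DNA methylation.

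Factors of the naive pluripotent state were called in both directions. Of 27 genes 2 (7.41%) were higher and 2 (7.41%) lower, beside 4.2% and 4.83% of all genes tested. At an unadjusted p under 0.05, 11 were higher and 10 lower, and the median log2 fold change was 0.04. The shares of 4.2% higher and 4.83% lower are the background for the counts of every list below. Tbx3, a T-box factor of naive cells, had 85.9, 83.6 and 81.9 RPM in ctrl and 34.9, 33.2 and 32.8 RPM in kd (-1.31, adjusted p = 2.4e-08), although it overlaps Tbx3os1, which fell too. Klf4, a Krüppel-like factor downstream of LIF, had 471, 471 and 483 RPM in ctrl and 264, 251 and 264 RPM in kd (-0.87, adjusted p = 9.13e-08). In both genes the groups lay far apart relative to their spread. Gbx2 rose 1.79-fold (86.8 ± 2.99 RPM in ctrl and 156 ± 9.64 RPM in kd), and Tcl1, a cofactor of Akt, rose 1.52-fold (74.6 ± 3.77 RPM in ctrl and 114 ± 9.74 RPM in kd), with a log2 fold change of 0.577 without ctrl replicate 2 and 0.54 without kd replicate 3, which ends the call. Sox2 and Zfp42 were lower by less than the minimum change (-0.35 and -0.33, adjusted p = 0.000223 and 0.000291), and Dppa5a was higher by less than it (0.39, adjusted p = 0.00119).

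Genes of the primed and formative epiblast that were called were mostly lower. Of 19 listed 15 were tested, 6 (40%) were lower and 1 (6.67%) higher, with a median log2 fold change of -0.35. The rule named Lef1 (above), Otx2 and Zic2. Otx2, a homeodomain factor of the epiblast and forebrain, had 11.4, 11.3 and 11.1 RPM in ctrl and 3.3, 2.81 and 4.24 RPM in kd (-1.66, adjusted p = 9.56e-06). Zic2, a zinc finger factor, had 106, 111 and 104 RPM in ctrl and 51.2, 47.1 and 46.7 RPM in kd (-1.14, adjusted p = 6.35e-08). Both show 3 kd libraries at under 50% of every ctrl library. Cldn6, Sox3 and Eomes were lower as well (-0.96, -0.77 and -0.68), while Fzd2, a Wnt receptor, rose 1.65-fold. The call of Sox3 was lost without ctrl replicate 2 (-0.68, adjusted p = 0.0556).

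Receptors and targets of LIF, FGF and Wnt signalling were described in turn. LIF keeps mESC undifferentiated through its receptor Lifr, the shared chain Il6st and Stat3. Of 17 genes of this pathway 3 (17.6%) were higher and 1 (5.88%) lower, beside 4.2% and 4.83% of all genes tested. Lifr rose 1.53-fold (106 ± 5.81 RPM in ctrl and 163 ± 14.2 RPM in kd), Il6st 1.55-fold (128 ± 3.92 RPM in ctrl and 199.6 ± 16 RPM in kd) and the kinase Pim1 1.52-fold (134 ± 4.53 RPM in ctrl and 204 ± 9.01 RPM in kd). All 3 stood near the minimum change. Without kd replicate 2 Lifr (0.55) and Il6st (0.57) were no longer called, nor Lifr without ctrl replicate 3 (0.57) or Pim1 without kd replicate 1 (0.57), so that 1 gene of the list was higher without kd replicate 2. Cish, an inhibitor of cytokine signalling, fell 1.76-fold (11.3 ± 0.905 RPM in ctrl and 6.29 ± 0.203 RPM in kd).

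FGF signalling through Erk drives mESC towards differentiation, and its feedback genes report on it. Of 22 tested genes 2 (9.09%) were higher and 6 (27.3%) lower, with a median of 0.01. At an unadjusted p under 0.05, 9 were higher and 6 lower, so the balance of the calls is not that of the list. The ligand Fgf17 rose 1.92-fold (74.3, 73.9 and 79.4 RPM in ctrl and 147, 138 and 153 RPM in kd), and the receptor Fgfr1 1.52-fold (168 ± 2.58 RPM in ctrl and 255 ± 7.43 RPM in kd). The phosphatase Dusp4 fell 1.93-fold (28.4 ± 1.4 RPM in ctrl and 14.6 ± 1.85 RPM in kd), the ligand Fgf15 1.74-fold (-0.80, SE 0.10, adjusted p = 0.000119) and Shisa2, which retains Fgf and Wnt receptors inside the cell, 1.97-fold (11.2 ± 0.475 RPM in ctrl and 5.57 ± 0.519 RPM in kd). A ligand was thus found on each side. In the immediate early list, 1 of 19 was higher and 2 lower. Myc, a growth factor-responsive transcription factor, rose 2.11-fold, with 56.6, 55.6 and 58.4 RPM in ctrl and 119, 117 and 126 RPM in kd (1.08, adjusted p = 5.61e-08). Egr1 and Atf3 fell (-0.82 and -1.01), at 16.3 ± 2.05 RPM in ctrl and 9.22 ± 2.11 RPM in kd and 4.62 ± 0.443 RPM in ctrl and 2.16 ± 0.164 RPM in kd.

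Of 17 tested Wnt genes (28 listed) 4 were lower and 1 higher, median -0.20. Besides Lef1, Axin2, the feedback inhibitor induced by Wnt, was called lower (-0.66, adjusted p = 0.00163), but not without kd replicate 3 (-0.577). Sp5 and Wnt7b were called (-0.72 and -0.77, at 3.37 ± 0.318 RPM in ctrl and 1.99 ± 0.559 RPM in kd and 1.92 ± 0.614 RPM in ctrl and 0.99 ± 0.0342 RPM in kd), both from few reads. Leaving out single libraries ended both calls. For Sp5 this held without ctrl replicate 1, 2 or 3 (-0.78, -0.66 and -0.72) or kd replicate 2 (-0.50), and for Wnt7b without ctrl replicate 1 or 2 (-0.57 and -0.76) or kd replicate 1 or 3 (-0.75 and -0.77). None of 16 genes of the Nodal pathway was called by limma or voom (7 at an unadjusted p under 0.05).

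The Id proteins, inhibitors of helix-loop-helix factors and targets of BMP, split. Id2 rose 1.88-fold (23.7 ± 2.77 RPM in ctrl and 44.5 ± 1.44 RPM in kd) and Id1 1.55-fold (58.4 ± 2.15 RPM in ctrl and 90.6 ± 5.01 RPM in kd), whereas Id4 fell 2.0-fold (4.56 ± 0.487 RPM in ctrl and 2.16 ± 0.192 RPM in kd) and Id3 1.57-fold (15.4 ± 1.17 RPM in ctrl and 9.8 ± 1.18 RPM in kd). The call for Id3 was lost without kd replicate 2 (-0.55). Of 16 Notch genes the ligand Dll1 and the effector Hes6 were higher (0.79 and 0.59) and the receptor Notch4 lower (-0.98). Hes6 was not called without ctrl replicate 1 (0.52), kd replicate 1 (0.56) or kd replicate 2 (0.55). In the Hedgehog pathway, Gli1, its transcriptional effector, rose 1.9-fold (45.9 ± 2.32 RPM in ctrl and 88 ± 14.4 RPM in kd). Of 12 tested genes of this pathway 2 (16.7%) were higher and 0 lower (5 higher and 1 lower at an unadjusted p under 0.05, 2 and 0 by voom). Tead4, a partner of Yap, fell 2.48-fold (37, 39.5 and 42.5 RPM in ctrl and 17.1, 15.3 and 15.2 RPM in kd), and Nt5e 1.95-fold, 2 of 17 tested genes of the Yap and Tead list.

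Retinoic acid is carried in the cell by binding proteins and acts through nuclear receptors. Of 21 listed genes 12 were tested, 4 were lower and 1 higher. The retinoic acid carriers Crabp1 and Crabp2 had log2 fold changes of -1.46 and -1.14, with Crabp1 at 25, 27.6 and 27.7 RPM in ctrl and 10.2, 8.19 and 10.5 RPM in kd. The receptor Rxrg fell 2.28-fold (4.04 ± 0.0924 RPM in ctrl and 1.66 ± 0.387 RPM in kd). These 3 genes were lower in every kd library than in any ctrl library. The gene called higher was Tgm2, a known target of retinoic acid, which moved the other way.

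Several genes of the extracellular matrix and of cell adhesion were lower. The basement membrane is a sheet of laminins, nidogens and type IV collagen. Of 32 listed genes 25 were tested, 9 (36%) were lower and 1 (4%) higher, with a median log2 fold change of -0.04. Among all genes tested the shares were 4.83% and 4.2%. Beside Lama1, the laminin chains Lamb3 (2.1 ± 0.0804 RPM in ctrl and 0.497 ± 0.143 RPM in kd, -1.67) and Lama4 (1.57 ± 0.572 RPM in ctrl and 0.377 ± 0.0921 RPM in kd, -1.49) were lower, both from few reads. Fibronectin (Fn1) went from 887 ± 37.6 RPM in ctrl to 480.2 ± 13.9 RPM in kd (-0.88), nidogen 2 (Nid2) from 238 ± 4.75 RPM in ctrl to 128 ± 5.26 RPM in kd (-0.89) and the collagen chain Col4a1 from 23.3 ± 0.275 RPM in ctrl to 12.6 ± 1.75 RPM in kd (-0.89). Lamc1, the gamma 1 chain that pairs with Lama1 in laminin 111, was the one that rose, from 612, 603 and 572 RPM in ctrl to 1061, 999.8 and 984 RPM in kd (0.77, adjusted p = 7.94e-07). Lamb1, the third chain of the same trimer, had 147 ± 2.26 RPM in ctrl and 144 ± 7.02 RPM in kd (-0.03, adjusted p = 0.679). The 3 chains of laminin 111 thus had a log2 fold change of -2.03, -0.03 and 0.77.

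Integrins, the receptors of the matrix, had 1 higher and 2 lower of 15 tested. Itga9 fell 2.03-fold (41.5 ± 2.31 RPM in ctrl and 20.4 ± 2.19 RPM in kd) and Itga3 1.67-fold (31.1 ± 2.6 RPM in ctrl and 18.5 ± 2.16 RPM in kd), and Itga8 rose 1.88-fold (1.55 ± 0.365 RPM in ctrl and 3.09 ± 0.391 RPM in kd).

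Cadherins and the plaque proteins of desmosomes hold neighbouring cells together. Of 23 tested genes (32 listed) 9 were lower and 1 higher, with a median of -0.44, the lowest among the 42 lists with at least 10 tested genes. N-cadherin (Cdh2) had 8.38, 9.47 and 8.04 RPM in ctrl and 2.43, 2.3 and 3.07 RPM in kd (-1.65, adjusted p = 1.25e-05), and R-cadherin (Cdh4) 7.95, 7.76 and 6.89 RPM in ctrl and 1.82, 4.01 and 4.33 RPM in kd (-1.18, adjusted p = 0.00402). Desmoplakin (Dsp), which ties desmosomes to keratin filaments, had 37.7, 35.1 and 31.4 RPM in ctrl and 11.7, 11.8 and 11.3 RPM in kd (-1.56, adjusted p = 1.36e-07). All 3 were separated between the groups. The other desmosome genes Dsg2 (80.5 ± 6.19 RPM in ctrl and 39.8 ± 3.6 RPM in kd, -1.01), Jup (144 ± 3.62 RPM in ctrl and 70.8 ± 7.33 RPM in kd, -1.02), Pkp2 (56.7 ± 4.01 RPM in ctrl and 30.4 ± 1.8 RPM in kd, -0.89) and Pkp3 (15 ± 2.21 RPM in ctrl and 8.8 ± 0.367 RPM in kd, -0.74) were lower as well. E-cadherin (Cdh1), the main cadherin of mESC, had 560.2 ± 3.47 RPM in ctrl and 458 ± 20.6 RPM in kd (-0.29, adjusted p = 0.000929), short of a call. Cdh6 was the one called higher (0.82, 2.49 ± 0.702 RPM in ctrl and 4.66 ± 1.65 RPM in kd), which was lost without ctrl replicate 2 (0.63), ctrl replicate 3 (0.83) or kd replicate 2 (0.56).

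Keratins, the partners of desmosomes, had 2 of 5 tested lower and 0 higher (4 lower and 0 higher at an unadjusted p under 0.05, 2 and 0 by voom). Krt19 had 5.32, 4.6 and 4.15 RPM in ctrl and 0.781, 0.853 and 1.17 RPM in kd (-2.07, adjusted p = 1.76e-05) and Krt42 14.2 ± 1.26 RPM in ctrl and 6.38 ± 0.283 RPM in kd (-1.12). Of 18 genes of tight junctions, Cldn6 (41.2 ± 2.21 RPM in ctrl and 21.1 ± 2.14 RPM in kd) and Cldn7 (18.9 ± 1.19 RPM in ctrl and 9.18 ± 0.825 RPM in kd) were lower by 1.95-fold and 2.03-fold. Adhesion molecules of the immunoglobulin and sialomucin kind had 4 higher and 6 lower of 26 tested. Kirrel2 and Kirrel rose (0.81 and 0.76) along with Ceacam1. Ncam1, the neural cell adhesion molecule, fell 2.16-fold (25 ± 2.21 RPM in ctrl and 11.5 ± 1.66 RPM in kd), Pecam1 2.17-fold (27.9, 29.9 and 29.7 RPM in ctrl and 13.5, 13.4 and 12.9 RPM in kd), Cd34 2.98-fold (2.63 ± 0.0176 RPM in ctrl and 0.751 ± 0.332 RPM in kd) and Spn 2.85-fold (5.62 ± 0.421 RPM in ctrl and 1.81 ± 0.102 RPM in kd).

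Actin and its partners were another group in which falls prevailed. Of 39 tested genes of the actin cytoskeleton (49 listed) 8 were lower and 0 higher (28 lower and 2 higher at an unadjusted p under 0.05, 8 and 0 by voom), with a median of -0.27. The share called lower was 20.5%, beside 4.83% of all genes tested. Tmsb4x, the thymosin that binds actin monomers, had 422, 425 and 448 RPM in ctrl and 190.4, 184 and 200.1 RPM in kd (-1.17, adjusted p = 2.3e-08). Msn, which links actin to the membrane, fell 1.62-fold (182 ± 4.9 RPM in ctrl and 112 ± 6.26 RPM in kd) and Anxa2 1.86-fold (7.13 ± 0.827 RPM in ctrl and 3.75 ± 0.677 RPM in kd). Myl7 was called (-0.88) but not without ctrl replicate 1 or 2 (-0.86 both). Of 22 tubulins and kinesins 3 were lower, with Tubb4a (5.94 ± 0.576 RPM in ctrl and 1.96 ± 0.377 RPM in kd, -1.50), Kif5c (-0.77) and Tuba4a (-0.64, and -0.56 without kd replicate 2, which ends the call).

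Transcription factors of neural progenitors moved in both directions. Of 32 listed genes 11 were tested, 3 were higher and 5 lower, with a median of -0.44. Sox1, the earliest factor of the neural plate, had 22.1, 24.9 and 21 RPM in ctrl and 52.9, 56.1 and 60.2 RPM in kd (1.31, adjusted p = 2.44e-07), and its overlapping transcript Sox1ot was called as well. Meis2 rose from 0.565 ± 0.225 RPM in ctrl to 1.72 ± 0.0939 RPM in kd (1.31). Pax6, a factor of the eye and forebrain, had 11.6, 10.5 and 12.1 RPM in ctrl and 3.47, 4.52 and 4.33 RPM in kd (-1.42, adjusted p = 1.49e-05), and Sox21 9.04, 10.8 and 9.63 RPM in ctrl and 3.47, 2.64 and 4.79 RPM in kd (-1.41, adjusted p = 0.000152). Sox1 and Pax6, which mark the same tissue, lay on opposite sides, and both were separated between groups. Zic5 fell 1.85-fold (61.6 ± 5.44 RPM in ctrl and 33.2 ± 3.11 RPM in kd).

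Neuronal and synaptic genes had 3 higher and 3 lower of 46 tested (60 listed, with 3 and 5 without kd replicate 2) and a median of 0.00. These shares of 6.52% each way lay near the 4.2% higher and 4.83% lower of all genes tested. Shank1, a scaffold of synapses, rose 1.85-fold (9.18 ± 1.53 RPM in ctrl and 17.4 ± 4.69 RPM in kd) and Elavl4, an RNA-binding protein of neurons, 1.55-fold (5.54 ± 0.595 RPM in ctrl and 8.71 ± 0.114 RPM in kd). Syp was called higher (0.77), but not without ctrl replicate 2 (0.64, adjusted p = 0.0633) or ctrl replicate 3 (0.70, adjusted p = 0.0545). Rbfox3 (5.18 ± 0.246 RPM in ctrl and 2.5 ± 0.0611 RPM in kd) and Map2 (28.7 ± 2.03 RPM in ctrl and 17.5 ± 0.751 RPM in kd) fell, and Gad1 was called (-0.95) but not without ctrl replicate 2 (-0.84, adjusted p = 0.0537).

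Guidance molecules for axons, which also act between other cells, had 5 (9.8%) higher and 10 (19.6%) lower of 51 tested (66 listed), median 0.02. The ligand Sema3e had 34.9, 29.8 and 31.1 RPM in ctrl and 82.8, 91.2 and 91.6 RPM in kd (1.47, adjusted p = 5.38e-08). Plxna4 had the same log2 fold change (1.47, SE 0.38, adjusted p = 0.0134), with 0.583, 0.0902 and 0.883 RPM in ctrl and 1.65, 1.88 and 1.44 RPM in kd. Its reads were few, from 1 (ctrl replicate 2) to 10 per library in ctrl. The ligand Efnb2 rose 1.68-fold (13.9 ± 1.45 RPM in ctrl and 23.5 ± 2.03 RPM in kd). Robo4, a receptor of endothelial cells, had 4.52, 3.88 and 4.95 RPM in ctrl and 1.22, 1.53 and 0.722 RPM in kd (-1.78, adjusted p = 0.000163), and the receptors Epha7 (6.14 ± 0.655 RPM in ctrl and 2.27 ± 0.253 RPM in kd), Plxna2 (7.47 ± 0.366 RPM in ctrl and 3.62 ± 0.805 RPM in kd) and Nrp2 (62.6 ± 2.45 RPM in ctrl and 32.5 ± 1.44 RPM in kd) fell 2.54-fold, 2.03-fold and 1.92-fold. Ligands were found on both sides, since Slit2 was called lower (-0.64), though not without kd replicate 1 (-0.57) or kd replicate 3 (-0.56).

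In energy metabolism a few steps were called. Of 26 glycolysis genes 5 were lower and 0 higher (16 lower and 2 higher at an unadjusted p under 0.05, 5 and 0 by voom), with a median of -0.32. The lactate exporter Slc16a3 had 93.5, 95.3 and 98.9 RPM in ctrl and 40.5, 34.2 and 40.3 RPM in kd (-1.32, adjusted p = 8.7e-08) and the phosphofructokinase Pfkp 309, 287 and 284 RPM in ctrl and 109, 133 and 116 RPM in kd (-1.30, adjusted p = 8.7e-08). For both, each kd library held less than 50% of the lowest ctrl library. Aldoc, Ldhb and Pgk1 were lower by 1.83-fold, 1.62-fold and 1.54-fold, of which Pgk1 lost its call without kd replicate 2 (-0.54). In fatty acid use, 4 of 36 tested genes were lower and 0 higher (14 lower and 5 higher at an unadjusted p under 0.05, 4 and 0 by voom). These were the lipase Lpl (10.7 ± 0.292 RPM in ctrl and 5.56 ± 0.383 RPM in kd), the carrier Fabp5 (20.4 ± 0.887 RPM in ctrl and 11.8 ± 1.43 RPM in kd) and the acyl-CoA synthetases Acsl5 (17 ± 1.03 RPM in ctrl and 10.0 ± 0.609 RPM in kd) and Acsl1 (66.7 ± 0.471 RPM in ctrl and 43.1 ± 4.28 RPM in kd, and not called without kd replicate 3, at -0.573). None of 41 nuclear genes of oxidative phosphorylation was called by limma or voom (7 at an unadjusted p under 0.05).

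Of 13 mitochondrially encoded proteins 7 were tested, and none was called by limma or voom (3 at an unadjusted p under 0.05). Their median log2 fold change of 0.45 stood beside the higher mitochondrial share of kd replicate 2, whose part in it was not tested. The other 6 were listed at 0 in every library.

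Cholesterol carriers rose together with 1 exporter, while 2 enzymes of synthesis were called lower. Apoe had 371, 379 and 399 RPM in ctrl and 1085, 845 and 1015 RPM in kd (1.35, adjusted p = 1.47e-07), with kd replicate 2 the lowest of the kd libraries, and Apoc1, from the same gene cluster, 3.79, 5.23 and 4.42 RPM in ctrl and 10.8, 9.64 and 12 RPM in kd (1.23, adjusted p = 7.5e-05). The exporter Abca1 was higher by 1.52-fold (61.6 ± 1.2 RPM in ctrl and 93.6 ± 3.87 RPM in kd) but stood at 0.579 without kd replicate 2, which ends the call. Idi1 fell 1.63-fold (15.3 ± 0.992 RPM in ctrl and 9.26 ± 0.44 RPM in kd), and Sqle was called (-0.64) but not without kd replicate 2 (-0.575). The 28 genes of the cholesterol list had a median of -0.22, with 17 lower and 3 higher at an unadjusted p under 0.05. In redox defence 37 of 40 genes were tested, with 2 (5.41%) higher and 4 (10.8%) lower. Hmox1, which breaks down haem, rose 1.97-fold (113, 108 and 105 RPM in ctrl and 226, 189 and 232 RPM in kd), and Srxn1 was called higher (0.64, and 0.56 without kd replicate 1, which ends the call). Gpx2 (3.42 ± 0.644 RPM in ctrl and 0.973 ± 0.60 RPM in kd), Gstm2 (10.1 ± 0.52 RPM in ctrl and 5.62 ± 0.742 RPM in kd), Prdx6 (215 ± 7.34 RPM in ctrl and 129 ± 11.2 RPM in kd) and Ucp2 were lower. Among 29 genes of the amino acid and ATF4 response, Gdf15 was higher (9.46 ± 1.15 RPM in ctrl and 17.5 ± 0.881 RPM in kd) and Aldh1l2 lower (11.2 ± 0.654 RPM in ctrl and 5.68 ± 0.445 RPM in kd).

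Genes of growth and division were counted next. Of 42 cytosolic ribosomal proteins none was called by limma or voom (3 at an unadjusted p under 0.05), and their log2 fold changes ran from -0.19 to 0.23. Of 46 genes of DNA replication and mitosis 1 was lower, Pcna, the sliding clamp of replication (235, 249.6 and 253 RPM in ctrl and 153, 132 and 151 RPM in kd, -0.76, adjusted p = 2.91e-06), while 18 were lower and 5 higher at an unadjusted p under 0.05. Among 23 G1 cyclins and CDK inhibitors 4 were lower and 0 higher (10 lower and 2 higher at an unadjusted p under 0.05, 4 and 0 by voom). Cdkn1c, a CDK inhibitor, fell 1.75-fold (11.5 ± 0.701 RPM in ctrl and 6.55 ± 1.08 RPM in kd), E2f2 1.73-fold (41.2 ± 3.14 RPM in ctrl and 23.7 ± 1.92 RPM in kd), and Ccnd2 (-0.68) lost its call without ctrl replicate 2 (-0.55). The fourth was Cdkn2a (-0.63, 4.03 ± 0.502 RPM in ctrl and 2.51 ± 0.163 RPM in kd), a CDK inhibitor gene, which was not called without ctrl replicate 1 (-0.55), ctrl replicate 3 (-0.62) or kd replicate 3 (-0.61). Of 25 genes of the p53 response, Perp fell 1.9-fold (73.3 ± 4.1 RPM in ctrl and 38.5 ± 1.35 RPM in kd), while 0 were higher (4 lower and 12 higher at an unadjusted p under 0.05, 1 and 0 by voom). Perp, as the 1 lower gene, made up 4% of the list, near the 4.83% of all genes tested.

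Imprinted genes, which are expressed from 1 parental copy, held the largest share of rises among lists with at least 20 tested genes, with 8 of 28 higher and 4 lower (6 and 5 without kd replicate 2, 7 and 5 by voom). Meg3, an RNA of the Dlk1 domain, had 28.4, 22.8 and 24.7 RPM in ctrl and 38.1, 72.3 and 48.3 RPM in kd. Mirg, next to it, had 21, 17.9 and 16.3 RPM in ctrl and 28, 54.4 and 35.4 RPM in kd. Their log2 fold changes were 1.01 and 1.04 (adjusted p = 0.000882 and 0.00115), and kd replicate 2 was the highest of the kd libraries in both. Without it the log2 fold changes were 0.76 and 0.77 (adjusted p = 4.78e-07 and 2.09e-06). Rian, from the same domain, rose 1.66-fold (76.1 ± 0.675 RPM in ctrl and 127 ± 14.7 RPM in kd), so 3 of the 8 lie in 1 domain. Igf2 rose 1.92-fold (3.72, 4.69 and 3.09 RPM in ctrl and 7.99, 6.57 and 8.04 RPM in kd), while H19, the RNA next to it that is expressed from the other copy, fell 1.85-fold (11.5, 12.8 and 10.2 RPM in ctrl and 6.68, 4.52 and 7.4 RPM in kd). Plagl1 (10.5 ± 0.949 RPM in ctrl and 5.14 ± 1.13 RPM in kd) and Nnat (9.66 ± 0.885 RPM in ctrl and 4.98 ± 0.407 RPM in kd) fell. In the interferon-linked list 3 of 19 were higher, Tap1 (3.62 ± 0.153 RPM in ctrl and 6.72 ± 0.561 RPM in kd), B2m (13.2 ± 1.14 RPM in ctrl and 23.6 ± 2.87 RPM in kd) and Bst2 (42.1 ± 3.8 RPM in ctrl and 69.7 ± 2.82 RPM in kd). Oas1a (3.79 ± 0.548 RPM in ctrl and 1.52 ± 0.494 RPM in kd) fell, and Irf1 (-0.62) and H2-D1 (-0.59) were called lower but not without kd replicate 3 (-0.57) for Irf1, or without ctrl replicate 1 (-0.55), ctrl replicate 2 (-0.577) or kd replicate 1 (-0.55) for H2-D1. B2m overlaps Patl2, which was called the same way.

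**Figure D4:**
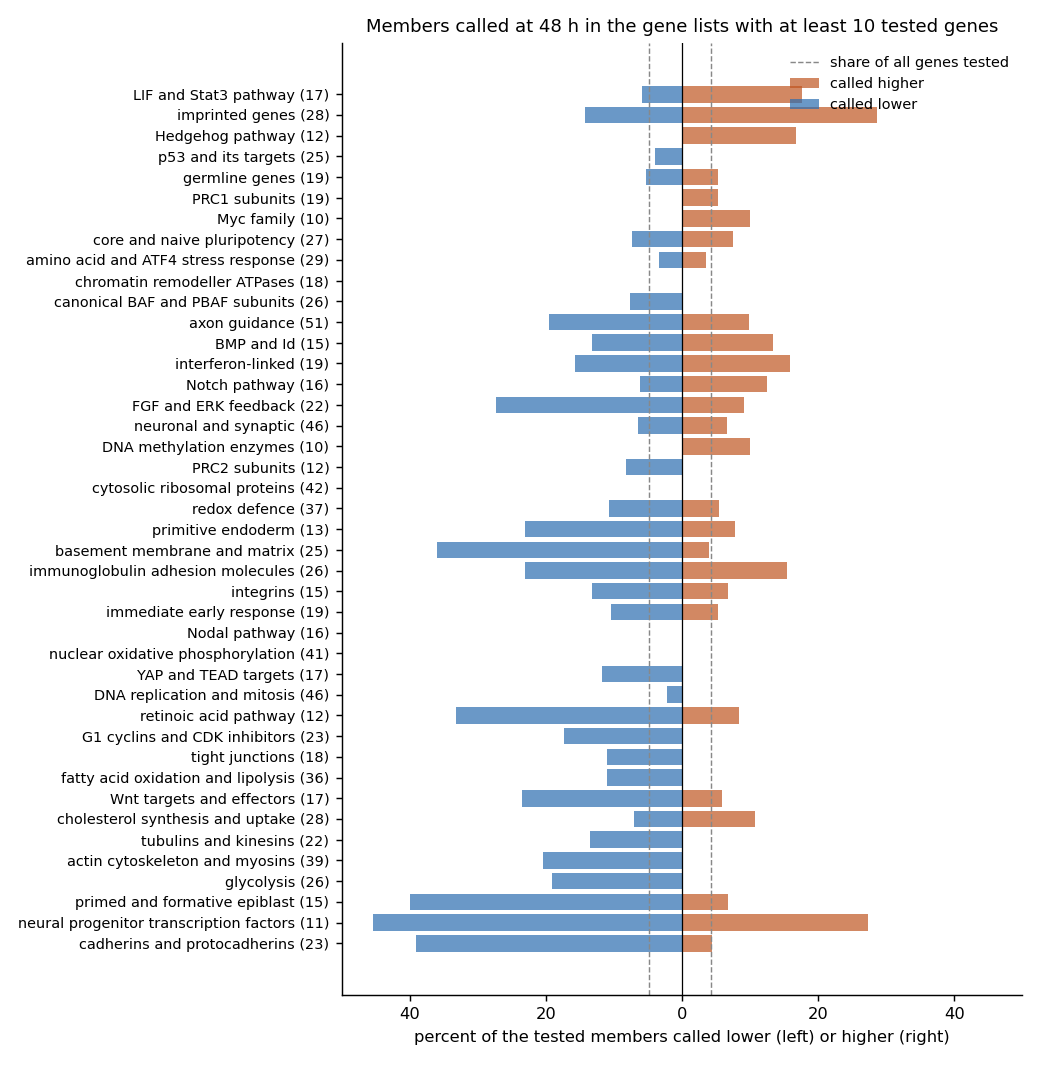
Percent of the tested members called lower (left, blue) and higher (right, orange) in the 42 gene lists with at least 10 tested genes, ordered by their median log2 fold change, with the number tested in brackets. The dashed lines mark 4.2% higher and 4.83% lower among all genes, and the longest bars to the left belong to neural progenitor factors (45.5%), primed epiblast (40.0%) and cadherins (39.1%).

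Without kd replicate 2, the count of a list moved by 1.5 times or more beside the LIF list in the following cases. Higher calls went from 2 to 1 in the Notch list, from 3 to 2 for cholesterol, from 1 to 0 for mesoderm and for cadherins, from 0 to 1 in the Yap and Tead list and from 1 to 2 for primitive endoderm. Lower calls went from 2 to 1 for BMP and Id, from 2 to 1 for cholesterol, from 3 to 2 for tubulins, from 3 to 5 for neuronal genes, from 0 to 1 for Nodal and from 1 to 2 in the Emp and Pmp22 family. Some named genes stayed called with a smaller change. The log2 fold change of Shank1 was 0.68 without kd replicate 2 (0.89 with it), that of H19 -0.69 (-0.89), that of Trpa1 -1.85 (-2.10) and that of Gpx2 -1.26 (-1.71).

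Markers of other cell types that cultures of mESC can hold were counted beside these groups. In primitive endoderm 3 of 13 tested genes were lower, Lama1, Col4a1 and Sox7 (3.08 ± 0.176 RPM in ctrl and 0.905 ± 0.197 RPM in kd), and Apoe was higher. The summed level of its 6 defining markers was 7.85 to 8.74 RPM in ctrl and 5.47 to 6.68 RPM in kd, with Sox7 the one called. Of 9 trophoblast genes tested (21 listed) 4 were lower, Tead4, Plet1, Eomes (4.64 ± 0.434 RPM in ctrl and 2.8 ± 0.212 RPM in kd) and Tfap2c (79.2 ± 3.51 RPM in ctrl and 51.4 ± 1.99 RPM in kd). The call of Plet1 (-0.93) was lost without ctrl replicate 1 (-0.81) or 2 (-0.91). The 6 defining trophoblast markers summed to 1.82 to 3.25 RPM in ctrl and 0.722 to 1.45 RPM in kd, and none reached the minimum of reads. Blood and endothelial markers summed to 28.3 to 30.2 RPM in ctrl and 12.9 to 13.5 RPM in kd, nearly all of it Pecam1, which mESC express, with no read of Ptprc and Hbb-bt.

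Neural markers summed to 167 to 181 RPM in ctrl and 188 to 229 RPM in kd, with no read of Neurog2. Most of this sum was Tubb3, at 133 to 146 RPM in ctrl and 128 to 169 RPM in kd (0.11, adjusted p = 0.413, not called). Of the others, Sox1 was called higher and Pax6 lower (above), so the sum does not show a shared rise. Mesoderm markers summed to 2.12 to 2.33 RPM in ctrl and 2.86 to 3.88 RPM in kd, where Tbx6 was called (1.09) but not without ctrl replicate 2 (0.91), ctrl replicate 3 (1.01), kd replicate 2 (0.84) or kd replicate 3 (1.10). Of 7 tested fibroblast and feeder genes Loxl1 (4.22 ± 0.769 RPM in ctrl and 7.48 ± 1.16 RPM in kd) rose and Fbn1 (7.86 ± 0.589 RPM in ctrl and 4.4 ± 0.134 RPM in kd) fell, and the calls for Col1a1 (0.70) and Thy1 (-0.90) were lost without ctrl replicate 3 (0.66 and -0.86), kd replicate 3 (0.58 and -0.71) or, for Thy1, ctrl replicate 1 (-0.82). In bulk RNA, fewer cells of a type and less RNA per cell cannot be told apart, and the part of such cells in the gene groups was not tested. Of 19 tested germline genes Kit was lower and Hormad1, a protein of meiotic chromosomes, higher (4.62 ± 0.894 RPM in ctrl and 8.21 ± 0.961 RPM in kd). Of 35 Hox genes and 23 genes of the 2-cell-like state 1 each had enough reads to be tested, and neither was called by limma or voom (0 at an unadjusted p under 0.05).

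The 48 h changes were set beside those at 240 h, which has its own controls, so that the comparisons share no library. At 240 h, 9.6% of 16633 genes were higher and 7.82% lower. Of the 661 genes higher at 48 h that were tested at 240 h, 336 were higher then too and 18 were lower. Of the 770 lower genes, 441 were lower then too and 37 were higher. An interaction term tested whether the effect differed between the times, which was called for 10.6% of 16403 genes. Among those higher at 48 h it was called for 213 of 669, in 143 of them towards the ctrl level and in 70 away from it. Among those lower at 48 h it was called for 273 of 776, in 184 towards the ctrl level and in 89 away from it. These genes were chosen by their 48 h effect, which the difference also uses, so that moves towards the ctrl level are favoured by the choice and the counts are a description only.

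Smarcb1 was at 85 ± 3.07 RPM in ctrl and 16.4 ± 1.32 RPM in kd, a log2 fold change of -2.36 whose difference from 48 h was not called (difference 0.13, SE 0.17, adjusted p = 0.646). At 72 h it was at 14 ± 1.65 RPM. For Kit (-2.40 at 240 h) and Lama1 (-2.06) the difference was not called either (adjusted p = 0.704 and 0.817). Emp1 was lower still, at 2.11 ± 0.0771 RPM at 72 h and 50.1 ± 1.68 RPM in ctrl and 2.48 ± 0.491 RPM in kd at 240 h (difference -1.21, adjusted p = 0.000131). Tgm2 reached 305 ± 10.2 RPM at 72 h but 23.8 ± 1.72 RPM in ctrl and 64.7 ± 3.65 RPM in kd at 240 h, where the effect was smaller than at 48 h (difference -1.29, adjusted p = 3.53e-07). The 72 h kd and 48 h kd libraries have the 48 h ctrl libraries as their shared control, and the levels are given without a test between them.

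Some genes had opposite directions at the 2 times. Nkx6-3 stood at 11 ± 1.01 RPM at 72 h, and at 10.2 ± 1.6 RPM in ctrl and 2.73 ± 0.327 RPM in kd at 240 h, the opposite direction from 48 h (difference -3.65, SE 0.19, adjusted p = 3.17e-10). Id3, H19 and Anxa2 were lower at 48 h and higher at 240 h (log2 fold change 1.62, 1.49 and 0.97). Itga3 was likewise lower at 48 h and higher at 240 h (0.74), and Kirrel2 higher at 48 h and lower at 240 h (-0.92). Otx2 (0.47), Cdh2 (-0.06), Pax6 (0.26), Pecam1 (0.14) and Lamb3 (-0.42) were lower at 48 h and not called at 240 h, each with a called difference between the times. Ank1, higher at 48 h, had -0.50 at 240 h. Other early changes were larger at 240 h in the same direction, such as Ablim1 (-3.79), Tead4 (-2.65), Igf2 (2.35) and Sema3e (2.18).

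**Figure D5:**
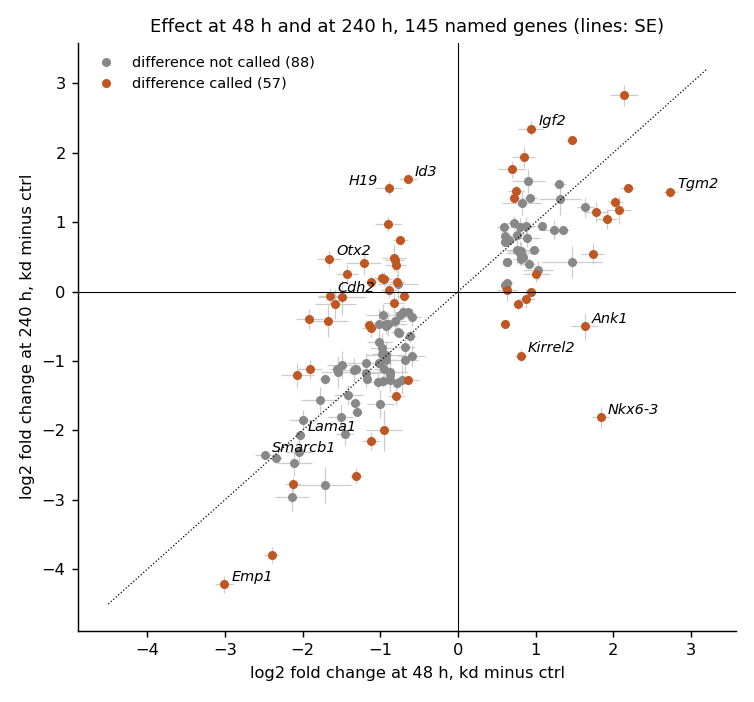
Log2 fold change (kd minus ctrl, with SE as lines) at 48 h on the horizontal axis and at 240 h on the vertical axis for 145 genes named by the rule, with a dotted line of equal effect. The 57 genes whose difference between the times was called are in orange, and Nkx6-3 (1.84 at 48 h, -1.81 at 240 h) lies farthest from the line.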

How the data were processed

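RNA was sequenced as single reads. The authors aligned them to mm10 (GRCm38.p6) with STAR 2.7.0c, counted reads per gene in R and tested the counts with DESeq2 1.30.0, per the labels and methods. The deposited values are FPKM, 1 per gene and library, with coordinates that are 1-based. FPKM times the gene span, introns included, gave whole reads (tolerance 0.001) for 100% of values above 0 in every library, at 1 total per library. Reads summed over genes exceeded the totals by 7.61% to 8.34% at 48 h, so some were counted for several genes, which leaves overlapping and antisense genes uncertain. The methods name a GENCODE release for assigning chromatin peaks to genes, but the annotation behind the read counts is not given in the sources used here, nor is the handling of strand, which was inferred from the values. Of 55228 genes 96.5% matched GENCODE release M21, which gave identifiers, types and strand.

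Since the unit is FPKM, limma 3.58.1 in R 4.3.3 was run, two-sided, on log2(RPM + 0.25) with a trend in the prior variance, for genes that averaged at least 10 reads. Fold changes are on that scale, which understates those of low genes. Thresholds for a call are those of the study. The 48 h fit used the 6 libraries of that time, the 240 h fit the 6 of its own, and the interaction all 12. Adjusted p-values are from limma (Benjamini-Hochberg over all genes tested). Permuting 3 and 3 libraries exactly allows no two-sided p under 0.1, so this was not done. The recovered reads were also tested with limma voom. The 48 h fit was also run on simulated data, whose outcome is not reported here and lends no support to the calls. The reads carry no molecular identifiers.

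The genes named are Smarcb1, Tgm2, Emp1 and Ucp2, the 12 largest rises and falls among called genes whose groups did not overlap (mean of at least 50 reads, no predicted genes, span of at least 200 bases), and up to 3 called members per direction of 53 gene lists (1279 genes) written from general knowledge, 149 genes in all. The members, lists and tests were chosen with earlier results of these data known. Further list members were named after their values were seen. Same-numbered kd and ctrl libraries did not deviate together (correlations of -0.39, -0.19 and 0.20), so the numbers were not used as pairs. Alternatives were other pseudocounts, read minima, scalings, controls, thresholds, 1 fit of all 15 libraries and each library left out. Python 3.11.15 with pandas 2.3.3, numpy 2.4.6 and matplotlib 3.10.9 served for tables and plots. Some genes that the rule selected are not reported here, though counts include them. Chromatin data of the study were not analysed here.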

Additional observations from a re-analysis of the deposited data

Results flagged for a closer look

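For 57 of the 145 named genes that are reported here and were tested at both times, the effect of the knockdown differed between 240 h and 48 h by the interaction term of limma (adjusted p under 0.05 and a difference above 0.58). It was called for 10.6% of all genes tested, but the named genes were chosen by their 48 h effect, which enters the difference, so the shares cannot be compared. The values below are the log2 effect at 240 h minus that at 48 h, from 3 kd and 3 ctrl libraries at each time.

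Of genes called higher at 48 h, the estimate at 240 h was also above 0 but smaller for Tgm2 (-1.29), Pdzd2 (-0.69), Tafa4 (-0.90), Ceacam1 (-0.73), Rfx4 (-0.87), Scn3b (-0.63), Adamtsl4 (-1.19), Elavl4 (-0.62) and Meg3 (-0.76). It was below 0, short of a call, for Ank1 (-2.13), Fgf17 (-0.95), Lamc1 (-0.95), Abca1 (-1.06) and Gdf15 (-0.98). It was called lower at 240 h for Nkx6-3 (-3.65) and Kirrel2 (-1.73). It was larger at 240 h for Arhgef38 (0.69), Sema3e (0.71), Efnb2 (0.70), Tap1 (1.10), Bst2 (0.62), Igf2 (1.41) and Col1a1 (1.06).

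Of genes called lower at 48 h, the estimate at 240 h was also below 0 but nearer to it for Lpar1 (1.52), Lad1 (0.79), Phf19 (0.59), Zic2 (0.66), Lamb3 (1.25), Lama4 (1.41), Cdh2 (1.58), Cd34 (1.39), Map2 (0.64), Krt19 (0.86) and Gstm2 (0.66). It was above 0, short of a call, for Otx2 (2.13), Cish (1.26), Dusp4 (1.13), Egr1 (1.31), Notch4 (1.18), Pecam1 (1.26), Pax6 (1.68), Col4a1 (0.91), Fabp5 (0.92), Oas1a (1.63) and Fbn1 (1.18). It was called higher at 240 h for Id3 (2.27), Itga3 (1.48), Anxa2 (1.87) and H19 (2.38). Genes lower still at 240 h were Emp1 (-1.21), Ablim1 (-1.39), Coro2b (-0.65), Fgf15 (-0.70), Tead4 (-1.34), Gad1 (-1.05), Krt42 (-1.03) and Tuba4a (-0.63). Groups of 3 libraries are too small for a test of single outlying libraries, and the causes of these differences were not tested.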

How the results depend on the processing

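For the 149 named genes the alternatives gave 2882 results, since not every gene was tested in each. Of these, 2769 kept their side of the threshold, 113 lost the call and 0 reversed, and 40 genes lost a call in at least 1 alternative. The named genes were chosen by their call in the main fit, and the alternatives use largely the same libraries. Few reversals are favoured by that choice, so these counts are a description only. The number of genes called at 48 h (1454) ranged from 1214 to 1541 with 1 library left out (539 to 791 higher, 675 to 846 lower). With log2 FPKM and a minimum of 0.5 FPKM, 456 genes were called (227 higher, 229 lower) of 11420 tested, and of 82 named genes tested 77 were called. That setting changes the scale, the pseudocount and the filter together, and the cause was not tested. A minimum of 50 reads gave 853 (406 and 447), and no minimum fold change 4202 (2072 and 2130). At 240 h (2896 in the main fit) the same 3 settings gave 1016 (546 and 470), 1632 (819 and 813) and 7543 (3910 and 3633). The interaction (1732) gave 664 with log2 FPKM (310 higher, 354 lower), 3368 without a minimum fold change (1732 and 1636), and 565 higher with a minimum of 50 reads. With the replicate number as a replicate block, 1389 genes were called at 48 h (643 higher, 746 lower), of which 631 and 743 were also called without it. Not every library correlated best with its own number. Against the 240 h ctrl libraries as controls, 1725 genes were called, with 449 of the 674 higher and 573 of the 766 lower genes tested among them, and limma voom called 1485 (662 of 676 and 769 of 778). The remaining alternatives moved no count of calls by more than 1.5 times. In all leave-one-out fits, 391 of the 676 and 545 of the 778 genes stayed called. A library with few reads limits low genes: at 10 reads per gene counting error alone is large, and calls of genes with under 50 reads are the less certain ones.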
